A study of Homo sapiens with 11 samples.

Results

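The genes described here are 10 regulators that KMT2A-fusion leukaemias are known to keep active, apart from the HOXA genes: MEIS1, PBX3, FLT3, MEF2C, MYB, MYC, JMJD1C, ARID1B, ZEB2 and CPEB2. They were chosen by name with earlier results of these data known, so their counts beside shares of all genes may reflect that choice. Each was read by 1 transcript cluster, a group of probes summarised together for a transcribed locus. They are 10 of the 22109 genes on the array that have a cluster with a single gene symbol, and all 10 passed the level filter of 3.80 on the log2 scale that left 12147 genes for testing. Levels were read in MV4-11, an established acute myeloid leukaemia line, on 11 arrays with 1 array per condition. For 8 of the arrays, cells were transduced with shRNA and kept in 3 µM doxycycline for 24 hours. These carried a luciferase shRNA (shLuc), single shRNAs against RUNX1, RUNX2 or RUNX3 (shRUNX1, shRUNX2, shRUNX3), the 3 pairs of these, or all 3. For the other 3 arrays, cells without shRNA named on their labels were kept for 6 hours in DMSO, in 1 µM Chb-M' or in 1 µM Chb-50, the compounds being the alkylating PIP conjugates of the study. The promoter of the shRNA and the number of separate transductions are not stated in the labels. The study asked how transcript levels respond to knockdown of the RUNX family and to these compounds.

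KMT2A is a histone methyltransferase that holds developmental genes active, and its leukaemic fusions join its DNA-contacting part to partners such as AFF1 that recruit transcription elongation factors. The result is high expression of HOXA genes and of their partners MEIS1 and PBX3, together with the receptor kinase FLT3 and the transcription factors MEF2C, MYB and MYC, which keep blasts immature and dividing. MV4-11 is known to carry a KMT2A-AFF1 fusion and an internal tandem duplication in FLT3. RUNX1, RUNX2 and RUNX3 are DNA-binding factors that act with CBFB and recognise a short core motif in enhancers and promoters.

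Since the arrays vary the RUNX factors, the RUNX core motif was looked for in the promoters of the 10 genes. RefSeq promoters on GRCh38.p14, from 250 bases before to 50 bases after each start, were listed for 9 of the genes with 18 starts in all, and MYC was not in the table. The letters TGTGGT or TGCGGT stood on either strand in 4 of the 18 promoters, which belong to FLT3, JMJD1C and MEIS1, and in 19.6% of all 35116 promoters listed. The 5 matches are shown because they are the only ones in these windows. Each line gives 5′ to 3′ sequence on the strand of the gene with the motif in capitals, and a match on the opposite strand reads ACCACA or ACCGCA. The sequences are credited to RefSeq, and a match describes letters and not a bound site.
FLT3, chr13:28100594-28100649, minus strand, 48 bases before the start: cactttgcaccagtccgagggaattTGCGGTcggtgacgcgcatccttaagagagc
JMJD1C, chr10:63466046-63466101, minus strand, 99 bases before the start: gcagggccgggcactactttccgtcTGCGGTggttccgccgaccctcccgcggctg
JMJD1C, chr10:63522094-63522140, minus strand, 234 bases before the start: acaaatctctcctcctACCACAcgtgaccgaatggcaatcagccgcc
JMJD1C, chr10:63522054-63522109, minus strand, 194 bases before the start: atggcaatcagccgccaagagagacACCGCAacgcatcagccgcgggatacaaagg
MEIS1, chr2:66434931-66434986, plus strand, 169 bases before the start: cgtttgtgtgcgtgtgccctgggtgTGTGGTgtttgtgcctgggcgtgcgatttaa

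All 6 myeloid markers passed the level filter on all 11 arrays, and of 20 markers of other blood and tissue types 3 did so and 6 passed on at least 1 array. The myeloid factor SPI1 lay between 8.50 and 8.67 and lysozyme (LYZ) between 11.05 and 11.60 on the log2 scale, whereas CD3D and CD3E of T cells, HBB of red cells, EPCAM of epithelium and DCN of fibroblasts stayed at or below 2.60. The 3 markers of other types above the filter throughout were KRT8 of epithelium (4.39 to 4.97), CD79A of B cells (4.11 to 4.92) and PF4 of megakaryocytes (4.91 to 5.53), near the myeloid enzyme MPO (4.89 to 5.50). Of 8 monocyte maturation markers, 5 were above it on all arrays, including CD68 at 9.29 to 10.33 and CSF3R at 5.82 to 6.75, while CD14 lay at 2.21 to 2.56. Array medians were 5.86 to 5.91. With 1 array per condition, precision is limited by their number. RUNX2 read 5.56 to 5.82 on the 4 arrays with its shRNA and 6.00 to 6.30 on the 4 without. RUNX3 read 7.65 to 7.87 with its shRNA, and the array labelled shRUNX1 read 7.70, within that range, although its label names no RUNX3 shRNA. RUNX1 shares its cluster with LOC100506403, which read 3.96 to 4.26 with the RUNX1 shRNA and 4.20 to 4.45 without. Without the array labelled shRUNX1, 16 of the 30 shRNA differences of the 10 genes stayed within 1.5 times of their value, 11 moved by more and 3 changed sign, and those that moved are given without it below.

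None of the 10 genes passed the test for any of the RUNX shRNAs, and all 10 varied less over the 8 shRNA arrays than the median gene tested. The log2 difference between the highest and lowest of the 8 arrays had a median of 0.26 over the 10 genes, against 0.39 over all genes tested. It was smallest for ZEB2, at 0.12, followed by MYB at 0.15 and MYC at 0.16, and largest for JMJD1C at 0.37 and MEIS1 at 0.36. Mean levels of the 10 lay at percentiles 54.3 (PBX3) to 98.0 (MYC) of genes tested. Their ranges were not set against genes of like level. Each shRNA was present on 4 of the 8 arrays, and its effect was fitted with limma as the mean with minus the mean without, over all 12147 genes. No gene was called at a Benjamini-Hochberg adjusted p under 0.05 for the RUNX1, RUNX2 or RUNX3 shRNA, so the share called was 0% of genes and 0 of the 10. Groups with and without the shRNA did not overlap for 0 of the 10 with RUNX1 beside 9.88% of all genes, and for 0 with RUNX2 beside 1.54%. At an unadjusted limma p under 0.05, 1 of the 10 stood out for RUNX1 beside 21.2% of all genes (2580), 0 for RUNX2 beside 4.88% (593) and 1 for RUNX3 beside 9.39% (1141). Left without the array labelled shRUNX1, the RUNX1 fit called 817 genes and none of the 10. The labels do not say whether the arrays stem from separate cultures, and no condition was repeated. These p-values rest on the spread that the additive shRNA terms leave. That spread holds departures of combined shRNAs from additive effects as well as array-to-array spread, which may be technical. These cannot be told apart here.

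**Figure D1:**
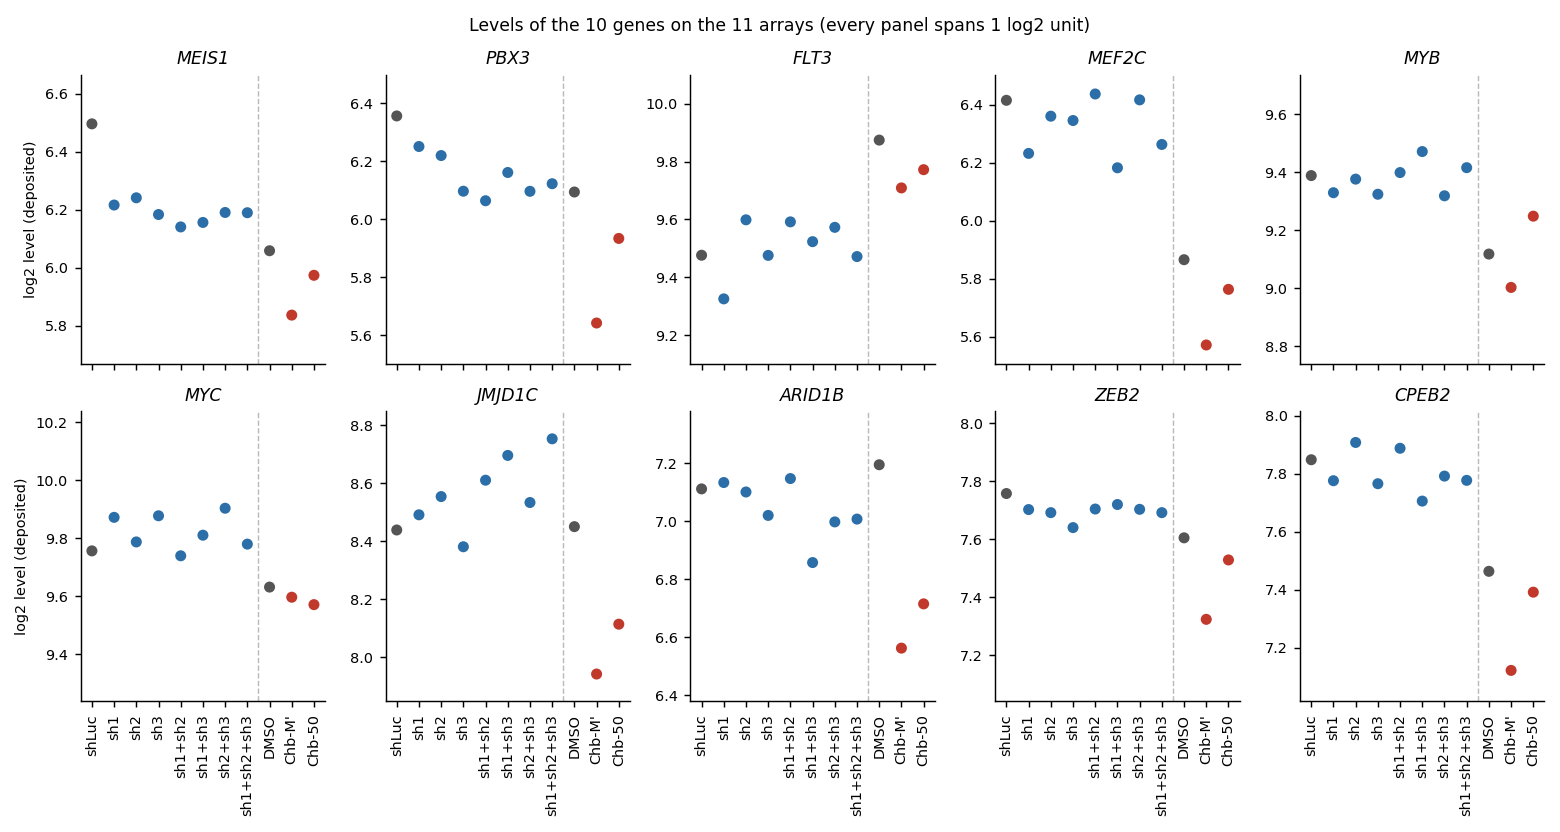
Deposited log2 level (vertical axis) of each of the 10 genes on the 11 arrays (horizontal axis, where sh1, sh2 and sh3 stand for shRUNX1, shRUNX2 and shRUNX3), with each point 1 array. Grey points are shLuc and DMSO, blue points the RUNX shRNA arrays and red points the compounds, and a dashed line parts the 24-hour shRNA arrays from the 6-hour arrays. MEIS1 and PBX3 were highest on shLuc, at 6.50 and 6.36, and 6 of the genes read lower on every 6-hour array than on any shRNA array.

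The homeodomain partners of HOXA proteins, MEIS1 and PBX3, were highest on the luciferase control. MEIS1 (transcript cluster 16880814) read 6.50 on shLuc, 6.22 on shRUNX1, 6.24 on shRUNX2, 6.18 on shRUNX3, 6.14 on shRUNX1+shRUNX2, 6.16 on shRUNX1+shRUNX3, 6.19 on shRUNX2+shRUNX3 and 6.19 with all 3 shRNAs. The 7 arrays with a RUNX shRNA thus lay within 6.14 to 6.24, and shLuc exceeded the highest of them by 0.26. PBX3 (17089119) read 6.36 on shLuc, 6.25 on shRUNX1, 6.22 on shRUNX2, 6.10 on shRUNX3, 6.06 on shRUNX1+shRUNX2, 6.16 on shRUNX1+shRUNX3, 6.10 on shRUNX2+shRUNX3 and 6.12 with all 3 shRNAs. Here shLuc stood 0.11 above the next array. ZEB2 was the only other of the 10 with its highest shRNA level on shLuc, by 0.038, and 13.7% of all genes had that order. With a single shLuc array, a lower level under every RUNX shRNA and a high reading of that array cannot be told apart.

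In the fit, MEIS1 differed by -0.10 ± 0.073 (SE) for the RUNX1 shRNA, with limma adjusted p = 0.458, and its groups overlapped at 6.18 to 6.22. The MEIS1 difference was negative in 4 of 4 pairs of arrays that differ only in that shRNA, from -0.28 against shLuc to -0.00086 within the background of the RUNX2 and RUNX3 shRNAs. Its RUNX2 and RUNX3 differences were -0.07 (adjusted p = 0.976) and -0.09 (adjusted p = 0.699). PBX3 differed by -0.04, -0.09 and -0.10 for the RUNX1, RUNX2 and RUNX3 shRNAs, with limma adjusted p = 0.744, 0.972 and 0.638. Without the shLuc array, the MEIS1 differences shrank to -0.034, -0.0048 and -0.026 and those of PBX3 to -0.0092, -0.057 and -0.070. For MEIS1 the control array thus carried most of each difference.

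FLT3, a receptor tyrosine kinase that signals growth in blasts, varied by less than the median gene within the knockdown set. FLT3 (16777685) read 9.33 at its lowest, on shRUNX1, 9.50 at the median and 9.60 at its highest, on shRUNX2. The array labelled shRUNX1 was the only 1 of the 8 below 9.47. The FLT3 difference was 0.11 ± 0.066 (SE) for the RUNX2 shRNA (limma adjusted p = 0.965), -0.05 for RUNX1 (adjusted p = 0.682) and 0.01 for RUNX3 (adjusted p = 0.955). Leaving out the array labelled shRUNX1 gave 0.062 for RUNX2, -0.0069 for RUNX1 and -0.033 for RUNX3. The array does not tell mutant from normal FLT3 transcripts.

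MYB and MYC, the factors that sustain self-renewal and growth, hardly differed between knockdown arrays. MYB (17012804) lay between 9.32 and 9.47, with a mean of 9.40 ± 0.059 (SD, n = 4) on RUNX1 shRNA arrays and 9.35 ± 0.036 (SD, n = 4) on the others. The 95% interval of this MYB difference ran from -0.086 to 0.19. MYC (17072669) lay between 9.74 and 9.90, and its RUNX1 difference was -0.03 with an interval of -0.17 to 0.11. For both genes, limma adjusted p was 0.650 or higher for every shRNA. Without the array labelled shRUNX1, the RUNX1 difference was 0.087 for MYB (adjusted p = 0.387) and -0.073 for MYC (adjusted p = 0.454), against 0.052 and -0.031 with it. Left without the same array, the RUNX2 and RUNX3 differences went from -0.00092 to -0.036 and from 0.0092 to -0.026 for MYB, and from -0.027 to 0.016 and from 0.054 to 0.097 for MYC. The intervals for MYB and MYC leave room for changes of up to 0.20 on the log2 scale in the direction of higher levels.

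MEF2C and ZEB2, factors that guide myeloid and lymphoid fate, also overlapped between groups. MEF2C (16997953) read 6.42 on shLuc, 6.23 on shRUNX1, 6.36 on shRUNX2, 6.35 on shRUNX3, 6.44 on shRUNX1+shRUNX2, 6.18 on shRUNX1+shRUNX3, 6.42 on shRUNX2+shRUNX3 and 6.26 with all 3 shRNAs. The 3 lowest MEF2C arrays all carried the RUNX1 shRNA, while the highest of all, shRUNX1+shRUNX2, carried it too. Its RUNX1 difference was -0.11 ± 0.063 (SE), with limma adjusted p = 0.382. ZEB2 (16903356) lay between 7.64 and 7.76, and only 2.12% of genes tested had a smaller range. Its differences were 0.0064, -0.0073 and -0.025 for the 3 shRNAs, with limma adjusted p from 0.896 to 0.997. Without the array labelled shRUNX1, those of ZEB2 for RUNX1 and RUNX2 were 0.016 and -0.017.

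**Figure D2:**
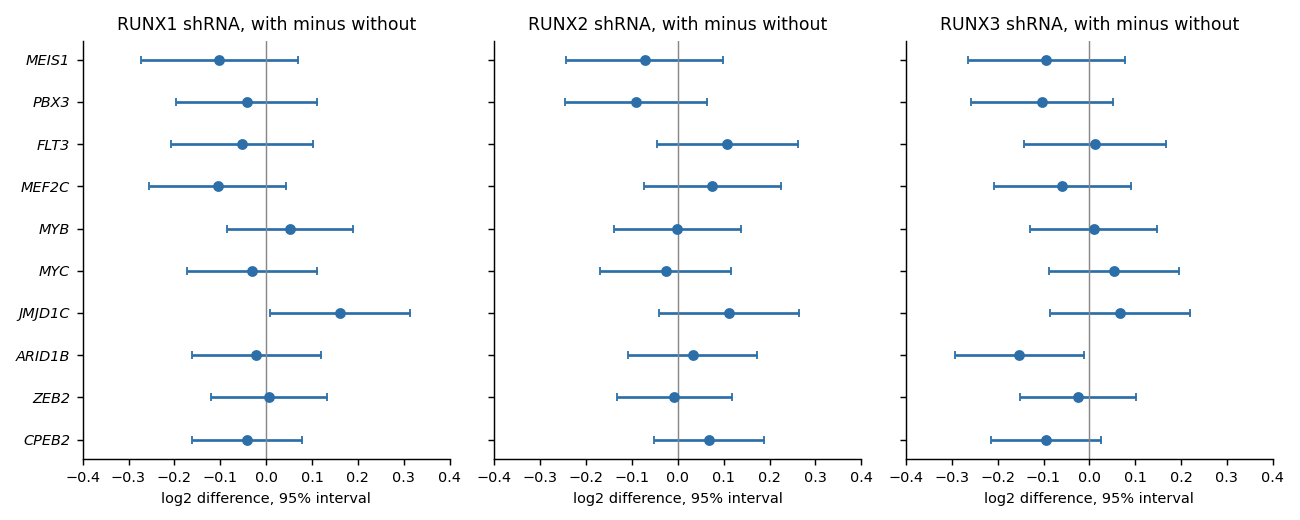
Log2 difference for each RUNX shRNA, 4 arrays with it minus 4 lacking it (horizontal axis), for each of the 10 genes (vertical axis). Points are limma estimates and bars their 95% intervals. The interval lay clear of 0 for JMJD1C with the RUNX1 shRNA (0.0084 to 0.31) and for ARID1B with the RUNX3 shRNA (-0.29 to -0.013), and neither passed after adjustment.

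The chromatin regulators JMJD1C and ARID1B had the largest estimates of the 10. JMJD1C, a jumonji-domain protein known as a cofactor in leukaemic transcription, read 8.44 on shLuc, 8.49 on shRUNX1, 8.55 on shRUNX2, 8.38 on shRUNX3, 8.61 on shRUNX1+shRUNX2, 8.70 on shRUNX1+shRUNX3, 8.53 on shRUNX2+shRUNX3 and 8.75 with all 3 shRNAs (16714798). Its 3 highest arrays were the combinations that include the RUNX1 shRNA, and the groups overlapped because shRUNX1 alone read below shRUNX2. JMJD1C had a mean of 8.64 ± 0.114 (SD, n = 4) on RUNX1 shRNA arrays and 8.48 ± 0.0813 (SD, n = 4) on the others. The fitted difference was 0.16 ± 0.065 (SE), with limma adjusted p = 0.218. JMJD1C is also the gene with 3 of the 5 motif matches printed above, and no measurement here bears on binding there. The difference was positive in 4 of 4 pairs, from 0.05 between shRUNX1 and shLuc to 0.32 between shRUNX1+shRUNX3 and shRUNX3. Without the array labelled shRUNX1 it was 0.19, with adjusted p = 0.145. Over all alternatives its adjusted p ranged from 0.122 to 0.485. The RUNX2 difference of JMJD1C was positive in 4 of 4 pairs too, at 0.11 ± 0.065 (SE), with limma adjusted p = 0.965. Its RUNX3 difference went from 0.067 to 0.039 without the array labelled shRUNX1.

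ARID1B, a DNA-binding subunit of the BAF chromatin remodelling complex, was the only 1 of the 10 whose groups did not overlap. It read 7.11 on shLuc, 7.13 on shRUNX1, 7.10 on shRUNX2, 7.02 on shRUNX3, 7.15 on shRUNX1+shRUNX2, 6.86 on shRUNX1+shRUNX3, 7.00 on shRUNX2+shRUNX3 and 7.01 with all 3 shRNAs (17014031). The 4 arrays with the RUNX3 shRNA were the 4 lowest, and shRUNX1+shRUNX3 stood below the rest. They averaged 6.97 ± 0.076 (SD, n = 4) against 7.12 ± 0.0209 (SD, n = 4). The fitted difference was -0.15 ± 0.060 (SE), with limma adjusted p = 0.51. Groups that do not overlap were found in 3.19% of all genes for this shRNA. The array labelled shRUNX1, whose RUNX3 reading was low, read 7.13 for ARID1B, among the higher values, and without it the difference was -0.13 (adjusted p = 0.61). The ARID1B differences for RUNX1 and RUNX2, -0.021 and 0.033, were -0.040 and 0.051 without that array.

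CPEB2, which binds the cytoplasmic polyadenylation element in messenger RNAs and regulates their translation, had small differences of 1 sign for each shRNA. CPEB2 (16965162) was lowest on shRUNX1+shRUNX3, at 7.71, had a median of 7.78 and was highest on shRUNX2, at 7.91. Its difference was negative in 4 of 4 pairs for the RUNX1 and RUNX3 shRNAs and positive in 4 of 4 for the RUNX2 shRNA. The estimates were -0.04, -0.09 and 0.07, with limma adjusted p = 0.675, 0.6 and 0.972. Pairs that all point 1 way were found for 3 of the 10 genes with RUNX1 beside 27.9% of all genes, for 3 with RUNX2 beside 14% and for 2 with RUNX3 beside 15.3%. The 10 genes had median differences of -0.036, 0.016 and -0.042, against 0.010, 0.0019 and 0.0060 over all genes tested.

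Dividing-cell genes and monocyte genes varied over the same knockdown arrays. The mean level of 15 S phase genes was 8.80 on shLuc, 8.67 to 8.81 on the single knockdowns, 8.36 on shRUNX1+shRUNX2, 7.87 with all 3 shRNAs and 7.70 on shRUNX1+shRUNX3. The arrays with the lowest S phase level were those on which JMJD1C was highest. The mean of 8 monocyte maturation markers ranged from 5.00 to 5.25 with the RUNX1 shRNA and from 4.77 to 5.18 without, with CD14 and FCGR3A below the level filter on all arrays. Their part in the values of the 10 genes was not tested.

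For most of the 10 genes, the DMSO array lay outside the whole range of the shRNA arrays. MEF2C read 5.87 on DMSO against 6.18 to 6.44 on the shRNA arrays, a difference of -0.47 from their mean. CPEB2 read 7.46 against 7.71 to 7.91, and MYB read 9.12 against 9.32 to 9.47. In the opposite direction, FLT3 read 9.87 on DMSO against 9.33 to 9.60, a difference of 0.37 from their mean, and ARID1B read 7.20 against 6.86 to 7.15. The DMSO array lay outside the range of the 8 shRNA arrays for 8 of the 10 genes, beside 37.5% of all genes tested. All 3 of the 6-hour arrays lay below all 8 shRNA arrays for MEIS1, MEF2C, MYB, MYC, ZEB2 and CPEB2, which is 6 of the 10 beside 8.31% of all genes, and above them for FLT3 alone, beside 7.83%. Transduction, doxycycline and culture time differ together between these sets and cannot be told apart. In the order of the 11 levels, neighbouring arrays differed by more than their 95% interval only for MEF2C, by 0.32 between DMSO and shRUNX1+shRUNX3, and for CPEB2 at 2 steps, including 0.27 between Chb-M' and Chb-50. For the other 8 genes, no neighbours in the order differed beyond that interval.

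With Chb-M', all 10 genes read lower than with DMSO, and the longest genes differed most. ARID1B read 7.20 with DMSO, 6.56 with Chb-M' and 6.72 with Chb-50. JMJD1C read 8.45, 7.94 and 8.11 on the same 3 arrays, and PBX3 read 6.09, 5.64 and 5.93. In all 3 genes Chb-M' gave the lowest level of the 11 arrays, as it also did for MEIS1, MEF2C, MYB, ZEB2 and CPEB2. Against DMSO, the log2 difference with Chb-M' was -0.63 for ARID1B (95% interval -0.91 to -0.35), -0.51 for JMJD1C (-0.81 to -0.20) and -0.45 for PBX3 (-0.76 to -0.14), or 64.5%, 70.3% and 73.1% of the DMSO level. CPEB2 followed at -0.34, MEF2C at -0.29, ZEB2 at -0.28 and MEIS1 at -0.22. The oncogenic drivers FLT3 and MYB read -0.16 and -0.12, and MYC, the shortest gene of the set, read -0.035.

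These differences come from single arrays with no replicate check. None of the 10 was at least 2-fold lower, beside 0.56% of all genes, and 1, ARID1B, was at least 1.5-fold lower, beside 3.21%. A difference below 0 was found in 44.4% of all genes. The intervals come from a limma fit on all 11 arrays that assumes the 6-hour arrays vary like the shRNA arrays after their additive terms. Departures of combined shRNAs from additive effects thus enter the intervals of that fit. That fit called 74 genes, 0.609% of those tested, and 0 of the 10. With 1 shRNA array left out it called 77 genes without shRUNX1, 5 without shRUNX1+shRUNX3 and 0 without any other. The smallest adjusted p among the 10 was 0.0791, for ARID1B, which ranged from 0.0366 to 0.156 over the alternatives and passed only where the level filter was raised to 6.08. JMJD1C had limma adjusted p = 0.148, PBX3 0.193, CPEB2 0.203 and ZEB2 0.305.

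With Chb-50 the same DMSO array was the reference, so its reading enters both comparisons. ARID1B differed from DMSO by -0.48 (95% interval -0.76 to -0.20; pooled limma adjusted p = 0.283) and JMJD1C by -0.34 (-0.64 to -0.032; adjusted p = 0.497). The other genes lay between -0.16 for PBX3 and 0.13 for MYB, and each of their intervals included 0. A difference below 0 was found for 9 of the 10 genes beside 49% of all genes, and the pooled fit called 0 genes, 0% of those tested. MYB was the exception, at 9.12 with DMSO and 9.25 with Chb-50.

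Long genes as a class read lower on both compound arrays than on the DMSO array. Over all genes tested, the median Chb-M' difference was 0.088 for the 3328 genes under 10 kb, 0.059 for 10 to 50 kb, -0.045 for 50 to 100 kb, -0.19 for 100 to 200 kb and -0.39 for the 556 genes over 200 kb. With Chb-50 these medians were 0.044, 0.023, -0.034, -0.11 and -0.24. By RefSeq GRCh38.p14, ARID1B spans 435 kb, JMJD1C 355 kb, PBX3 220.0 kb, MEF2C 187 kb, MEIS1 139 kb, ZEB2 136 kb, FLT3 97.3 kb, CPEB2 67.7 kb, MYB 37.9 kb and MYC 7.52 kb. Across the 10 genes, which share the same arrays, Spearman's rho between span and difference was -0.87 with Chb-M' and -0.95 with Chb-50, and across 11867 genes with a span it was -0.35 and -0.26. Genes are not independent replicates, and these correlations describe the arrays.

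**Figure D3:**
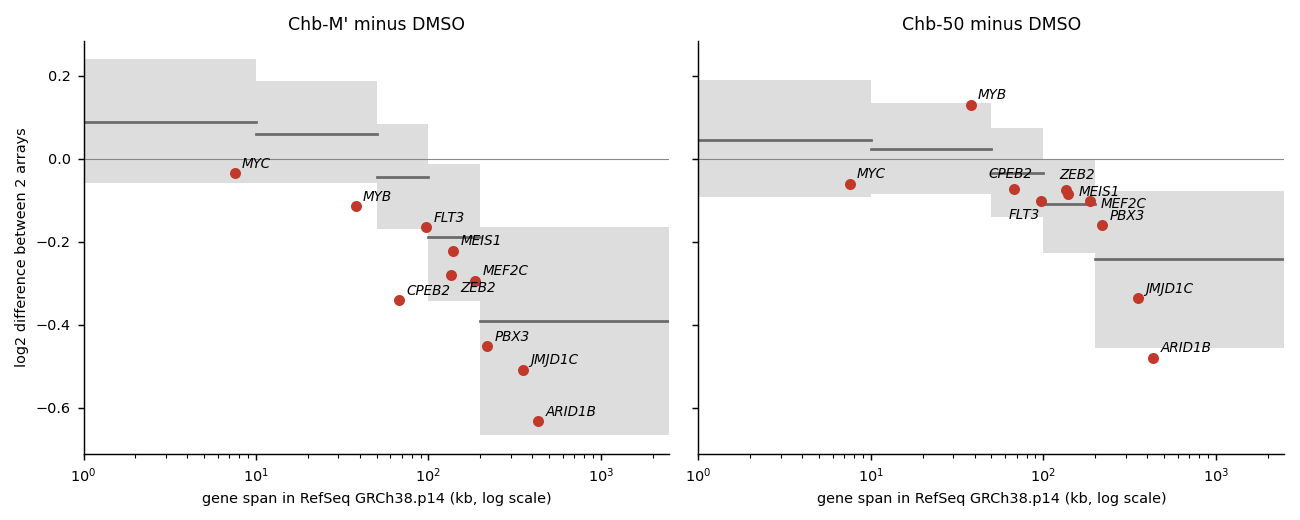
Log2 difference from DMSO (vertical axis) against gene span in kb (horizontal log axis) for the 10 genes (red points), with Chb-M' at left and Chb-50 at right. Grey bands and lines are the quartiles and medians of all genes tested in each class of span, and the outer classes are drawn to the edge of the axis. All 10 points lie below the median of their class with Chb-M', from -0.03 for MEIS1 to -0.30 for CPEB2, whereas with Chb-50 some lie above it.

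Relative to genes of the same class of span, the Chb-M' differences of the 10 genes lay between -0.30 and -0.033. The classes are broad, so span still differs between genes within a class. MEIS1 lay at -0.033 from its class median and PBX3 at -0.061, and 44% and 44.2% of their classes were lower still. ARID1B lay at -0.24 from the median of genes over 200 kb, with 27.5% of that class lower. That class has no upper bound, and ARID1B was at percentile 99.0 of span among all genes tested. CPEB2 stood furthest from its class, at -0.30 from the median of genes of 50 to 100 kb, with 8.11% of them lower. The differences of the 2 shortest genes were larger against their class than against DMSO alone, at -0.17 rather than -0.12 for MYB, with 17.3% of its class lower, and at -0.12 rather than -0.035 for MYC, with 27.8% lower. FLT3 lay at -0.12, JMJD1C at -0.12, MEF2C at -0.10 and ZEB2 at -0.092. With Chb-50, ARID1B lay at -0.24 from its class median and JMJD1C at -0.094, while PBX3 (0.083), ZEB2 (0.033), MEIS1 (0.024) and MEF2C (0.0069) lay above theirs. The shRNA differences of the 10 genes had a rho with span of -0.0061, 0.16 and -0.41 for RUNX1, RUNX2 and RUNX3.

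The 2 compounds, given at the same dose and time, were also set directly against each other. Levels with Chb-M' were below those with Chb-50 for 9 of the 10 genes, beside 46% of all genes tested. CPEB2 read 7.12 with Chb-M' and 7.39 with Chb-50, a difference of -0.27 (95% interval -0.51 to -0.030), and PBX3 differed by -0.29 (-0.60 to 0.017). MYB differed by -0.25 (-0.52 to 0.030), ZEB2 by -0.20 (-0.46 to 0.048) and MEF2C by -0.19 (-0.49 to 0.11). The long genes JMJD1C and ARID1B differed by -0.17 (-0.48 to 0.13) and -0.15 (-0.43 to 0.13). MYC differed by 0.026 (-0.26 to 0.31), so its interval leaves room for a difference in either direction. The pooled limma fit called 0 genes, 0% of those tested, and the lowest adjusted p among the 10 was 0.644, for CPEB2. Against the class medians of span, CPEB2 kept most of its difference, at -0.26, and that of MYB grew to -0.28. The difference of PBX3 shrank to -0.14, and ARID1B (-0.00022) and JMJD1C (-0.020) kept little of theirs.

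**Figure D4:**
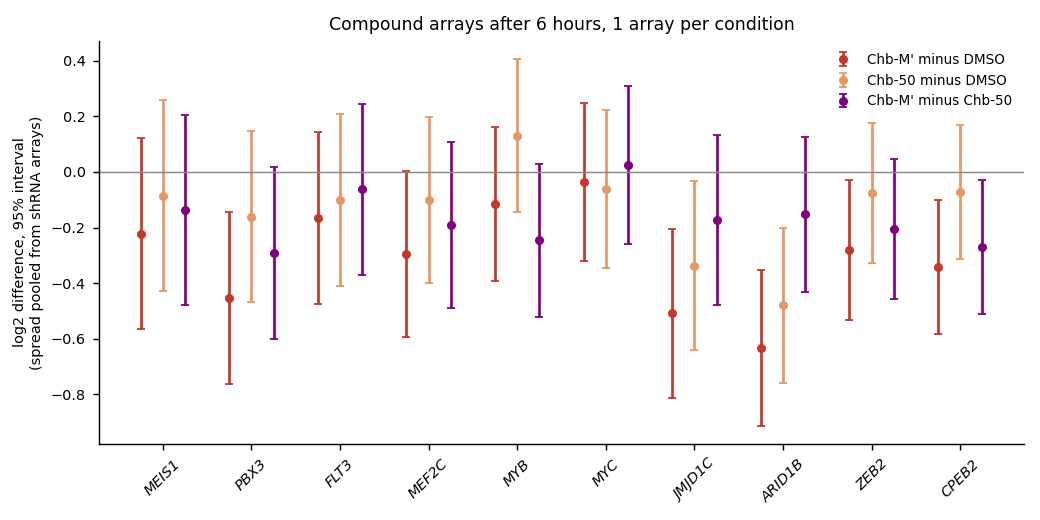
Log2 differences (vertical axis) of the 10 genes (horizontal axis) between the 6-hour arrays, 1 array per condition, for Chb-M' minus DMSO (red), Chb-50 minus DMSO (orange) and Chb-M' minus Chb-50 (purple). Bars are 95% intervals whose spread was pooled from the shRNA arrays. The red intervals of PBX3, JMJD1C, ARID1B, ZEB2 and CPEB2 and the orange intervals of JMJD1C and ARID1B lie below 0.

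Over all 11 arrays 9 of the genes varied together and FLT3 ran against each of them. Of the 45 pairs of genes, 36 had a positive Pearson's r over the 11 arrays, with a median of 0.75, and over the 8 shRNA arrays 23 were positive, with a median of 0.0053. MEIS1 and PBX3 kept a high r in both, at 0.92 and 0.86, as did MEF2C and CPEB2, at 0.98 and 0.73. So did ARID1B and CPEB2, at 0.76 and 0.78, and MYB and JMJD1C, at 0.81 and 0.74. The 9 pairs that were not positive over 11 arrays were those of FLT3 with each other gene, from -0.29 with ARID1B to -0.80 with MYC. These points share the contrast between the 6-hour and shRNA arrays, and in MEIS1 and PBX3 also the high shLuc reading.

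The genes whose pattern over the 11 arrays was most like that of each regulator were found by Pearson's r among protein-coding genes tested. MEIS1 was most like ZNF341 (0.95) and SAMD4B (0.94), and PBX3 most like ZNF407 and STRN3 (both 0.96). FLT3 was most like DACT3 (0.95) and CIB3 (0.94). MEF2C was most like CLECL1 (0.99) and APP (0.98), and MYB like MDM4 (0.97) and MRPS18B (0.96). MYC was most like FAM241A (0.96) and EPRS1 (0.95), JMJD1C like SBF2 (0.98) and SNX29 (0.97), and ARID1B like APC (0.96) and ATF7IP (0.94). ZEB2 was most like DIS3L2 (0.98) and CDK13 (0.97), and CPEB2 like IFT80 (0.98) and MEF2C (0.98), itself 1 of the 10.

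The other genes of the pathway, from lists drawn up by function, gave no calls in any comparison of the main fits. Over all genes tested, the share called in those fits was 0.609% for Chb-M' against DMSO and 0% in every other comparison. Calls among the listed genes were not read under the alternatives. Left without the array labelled shRUNX1, the RUNX1 fit called 817 genes. A list of KMT2A itself and cofactors of its fusions, AFF1 included, had 17 genes tested. Of these, 8 had a negative and 9 a positive RUNX1 shRNA difference. They ran from -0.38 for RBBP5, a core subunit of KMT2 complexes (limma adjusted p = 0.0977), to 0.63 for AFF4, a scaffold of the super elongation complex (adjusted p = 0.0817). With Chb-M' their median was -0.021, with WDR5, a KMT2 subunit, at 0.47 and MLLT10, a DOT1L partner, at -0.36. MLLT10 spans 210 kb, and the median of all genes over 200 kb was -0.39. Of the 17 genes of this list, 7 lay below and 10 above the median of their class of span. Of 12 other genes of the fusion programme, the cell cycle kinase CDK6 had the highest RUNX1 difference, at 0.32 (adjusted p = 0.0892), and the transcription factor TCF4 the lowest RUNX1 and RUNX3 differences, at -0.26 and -0.45. With Chb-M' 9 of these 12 were below 0, with a median of -0.17, against a median of 0.022 over all genes tested. Of the 12, 7 span over 100 kb, and 5 lay below and 7 above the median of their class of span.

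MYC partners and antagonists, MYC targets, outputs of FLT3 signalling and relatives of the 10 genes were also read. Among 8 MYC partners and antagonists, MXI1, which competes with MYC for MAX, had the highest RUNX1 difference, at 0.29 (limma adjusted p = 0.114). The MAX partner MGA had the lowest Chb-M' difference, at -0.56. It spans 149 kb, and genes of 100 to 200 kb had a median of -0.19. With Chb-M', 3 of the 8 lay below and 5 above the median of their class of span. Of 16 MYC target genes, 14 had a negative RUNX1 difference, beside 47.2% of all genes tested. Their median was -0.090, while MYC itself read -0.03. With Chb-M', 4 of the 16 were below 0, beside 32.7% of genes under 10 kb and 35.5% of those of 10 to 50 kb, and 15 of the 16 span under 50 kb. Their median was 0.098, and 10 of the 16 lay above the median of their class of span. Of 14 outputs of FLT3 signalling, the kinase PIM1 had the lowest RUNX1 difference, at -0.65 (limma adjusted p = 0.121), and the signal transducer STAT5A the lowest Chb-M' difference, at -0.56 (adjusted p = 0.156), although 12 of the 14 were above 0 with Chb-M', and 12 above the median of their class of span. Among 17 tested relatives of the 10 genes, MYBL2, the dividing-cell relative of MYB, had the lowest RUNX1 difference, at -0.66 (adjusted p = 0.132). Its relative MYBL1 had the highest Chb-M' difference, at 0.61 (adjusted p = 0.346).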

How the data were processed

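Levels were deposited by the authors on the log2 scale, 1 value per transcript cluster and array. The submitters' processing notes list Affymetrix Expression Console 1.3.1, RMA and Transcriptome Analysis Console 1.0 without saying what each did. No source used here gives a genome build for the probes. HOXA genes were not tested here, as of 11 listed only 1 had a single-symbol cluster and 0 passed the level filter. Of 53617 clusters, 23558 carried a single gene symbol, 2155 several and 27904 none listed. Where a gene had more than 1 cluster (618 genes), that with the highest mean represented it. Genes reaching 3.80, the median of all single-symbol values, on at least 1 array were tested.

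The shRNA effects came from limma 3.58.1 (R 4.3.3) on the 8 shRNA arrays, with 3 additive terms, 4 residual degrees of freedom, Benjamini-Hochberg adjustment over 12147 genes and a threshold of 0.05. The fit was tested on simulated data. Single-array differences were counted at 2-fold, and their intervals use 7.19 degrees of freedom. The 10 genes and all lists were chosen with earlier results of these data known. All 10 were named in every comparison, and the text also names the highest or lowest gene of a list and the 2 genes most like each regulator. Alternatives covered normalization, level filter, cluster choice, prior, model, fold threshold, gene span and each array left out.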

Additional observations from a re-analysis of the deposited data

Results flagged for a closer look

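For ARID1B, the array shRUNX1+shRUNX3 read 6.86, apart from the other 3 arrays with the RUNX3 shRNA, which lay between 7.00 and 7.02. Its gap to the nearest of them was 0.862 of the range of the group, above Dixon's 95% critical value of 0.829 for 4 samples. It was the only group of 4 arrays set apart in this way among the 60 groups examined for the 10 genes, and chance marks about 1 in 20.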

How the results depend on the processing

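Of 900 values of the 10 genes under the alternatives, 870 kept their direction and their side of the threshold, 29 changed sign and 1 passed the test, ARID1B with Chb-M' under the stricter level filter (adjusted p = 0.0366). Alternatives of level filter and prior for single genes were chosen after seeing the data. No paired analysis was possible because every label carries the same replicate number, so numbers pair no arrays. The pairs of the report are arrays that differ in 1 shRNA.

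The RUNX1 shRNA called 0 genes, but 110 under the stricter filter, 68 with an intensity-dependent prior, 391 with interaction terms (1 residual degree of freedom), and 0 to 817 with 1 array left out, the highest without shRUNX1. The RUNX3 shRNA called 0 to 1. With Chb-M', 74 genes were called, but 49 with the mean of all clusters, 7 without a filter, 128 under the stricter filter, and 0 to 77 with 1 array left out. At 2-fold, the 106 Chb-M' genes became 53 under the stricter filter, 663 at 1.5-fold and 9 at 3-fold. The 36 Chb-50 genes became 62 without a filter, 9 under the stricter filter, 409 at 1.5-fold and 2 at 3-fold. The 24 genes between the compounds became 53, 5, 281 and 2 in the same order.

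Signs turned for values near 0. With 1 array left out, RUNX1 differences ranged from -0.087 to 0.0035 for PBX3, -0.046 to 0.022 for ARID1B and -0.018 to 0.028 for ZEB2. RUNX2 differences ranged from -0.036 to 0.030 for MYB, -0.057 to 0.016 for MYC, -0.011 to 0.060 for ARID1B and -0.032 to 0.014 for ZEB2. RUNX3 differences ranged from -0.034 to 0.046 for FLT3 and -0.026 to 0.030 for MYB. The median of pairs gave 0.016 for ARID1B (RUNX1), and -0.013 for FLT3 and -0.020 for MYB (RUNX3). Subtracting array medians gave -0.012 for ZEB2 (RUNX1), and quantile normalization gave 0.015 for MYB (RUNX2) and -0.0072 for MYC between the compounds. Against the span class, Chb-50 differences were 0.024 for MEIS1, 0.083 for PBX3, 0.0069 for MEF2C and 0.033 for ZEB2, and MYC read -0.021 between the compounds. The causes were not tested. Signal over background is unknown, and 1 array per condition limits every value.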

Other observations

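Other subunits of the BAF complex, to which ARID1B belongs, were read on the same arrays. Of 16 tested, 11 had a negative RUNX1 shRNA difference, beside 47.2% of all genes tested, with a median of -0.028. BCL7A had the lowest, at -0.51 (limma adjusted p = 0.116), and also the lowest RUNX3 difference, at -0.39 (adjusted p = 0.496). With Chb-M' the median of the 16 was -0.048, and BCL7A had the highest difference, at 0.25, while SMARCD3 had the lowest, at -0.35. None passed the test in any comparison of the main fits, beside 0.609% of all genes tested for Chb-M' against DMSO and 0% in every other comparison. Calls among these subunits were not read under the alternatives.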
